A study of Mus musculus with 4 samples.

Results

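Etv1, Etv4 and Etv5 are the 3 genes of the PEA3 subfamily of ETS transcription factors, and their transcripts were compared between lung fibroblasts labelled KrasD12 and wild-type (WT) lung fibroblasts. They were taken by name as the rows of the array table annotated with exactly 1 gene symbol, that of the member, and a gene with several such rows was read from the brightest one on average. All 3 members had such a row, among 19938 genes in all. Etv1 and Etv5 each had a second row, which is given beside the first.

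RNA of 4 samples of cultured mouse lung fibroblasts was measured on Affymetrix arrays. The KrasD12 samples A and B came from the line numbered 493, which the series design calls SKY. The allele is given there as K-Ras G12D. The WT samples A and B came from the line numbered 494. All lines were established from mice 3 to 4 weeks old, the cells grew out of collagenase-digested lung in serum-containing medium, and no treatment was applied. With 1 line for each genotype, effects of the allele and of the line cannot be told apart. What drives the KrasD12 allele, and whether A and B are separate cultures, is not stated in the labels. The p-values therefore measure the spread between A and B, which may be technical. In such bulk RNA, fewer cells of a kind and less RNA per cell cannot be told apart.

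PEA3 factors bind DNA through the ETS domain, which recognises sites around a GGAA core, and activate transcription through an acidic domain. Growth factor receptors, FGF receptors in particular, and RAS drive them through the ERK cascade: the repressor CIC holds the 3 genes down until ERK signalling inactivates it, ERK and its downstream kinases phosphorylate the proteins, and the ubiquitin ligase COP1 with DET1 marks them for destruction. In the developing lung Etv4 and Etv5 are known for their part in FGF signalling between mesenchyme and epithelium, and Etv1 for its role in gastrointestinal stromal tumours.

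The promoter windows below are shown because Etv1 and Etv5 were both higher in KrasD12, and they were searched for words that ETS factors, CIC and AP-1 are known to bind. They run from 250 bases before to 50 bases after an annotated start, from RefSeq on build GRCm38.p6, which held windows of Etv1 and Etv5. Capitals mark matches on either strand to AGGAAG (an ETS word), TGAATGAA or TGAATGGA (CIC words), TGAGTCA (an AP-1 word) and TGAATGGG, a word related to those of CIC that was chosen after the Etv5 window had been read.
Etv1, chr12:38779832-38780131, plus strand: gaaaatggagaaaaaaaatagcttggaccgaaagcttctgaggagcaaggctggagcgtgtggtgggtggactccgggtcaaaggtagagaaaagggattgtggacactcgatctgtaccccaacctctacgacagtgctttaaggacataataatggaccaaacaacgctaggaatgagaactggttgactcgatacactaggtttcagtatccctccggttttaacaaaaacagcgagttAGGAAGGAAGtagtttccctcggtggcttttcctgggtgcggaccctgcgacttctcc
Etv5, chr16:22438319-22438618, minus strand: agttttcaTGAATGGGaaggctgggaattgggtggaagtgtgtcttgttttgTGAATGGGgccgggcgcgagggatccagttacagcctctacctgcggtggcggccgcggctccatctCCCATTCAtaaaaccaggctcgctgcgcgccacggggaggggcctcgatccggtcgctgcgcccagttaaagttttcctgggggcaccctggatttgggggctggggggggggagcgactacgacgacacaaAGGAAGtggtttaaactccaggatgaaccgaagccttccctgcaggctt
The Etv1 window held AGGAAG 2 times, at positions 243 and 247, where the copies overlap. AGGAAG is common, being present in 35.4% of the 32851 windows of all genes. The Etv5 window held AGGAAG once and TGAATGGG 3 times, at positions 9 and 53 on the printed strand and at position 120 on the other. TGAATGGG was present in 1.08% of all windows, and the Etv5 window was the only window (n = 1) with 3 copies. Because the word was chosen after reading that window, its rarity elsewhere is not a test of enrichment. Each gene had another annotated start, whose window is not printed and held none of the 5 words. For Etv5 that start lies upstream of the printed one. The windows printed are thus those with matches. TGAATGAA and TGAATGGA were absent from all 4 windows, while 2.47% of all windows held either, and TGAGTCA was absent from them too, against 5.20% of all windows. A match describes the letters and is not a binding site.

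Etv1, Etv5 and Etv4 were all higher in KrasD12 than in WT. Etv1 rose 6.77-fold, Etv5 3.22-fold and Etv4 2.02-fold, and each rose on the values as deposited and after quantile normalization. Rising or falling means here that limma called the gene in the same direction on both scalings at a Benjamini-Hochberg adjusted p under 0.05 over all genes. All 3 members rose on that rule, beside 22.4% of all genes that rose and 11.5% that fell, or 24.5% and 15.1% of genes above the dim level explained below. One scaling alone called 50.1% of genes higher and 11.9% lower (deposited) or 22.5% higher and 24.4% lower (quantile). At least 2-fold called rises were made by all 3 members on the deposited values, as by 3.65% of all genes. Etv1 and Etv5 made them on both scalings, as did 1.23% of all genes, and Etv4 did not.

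Etv1, also known as ER81, stood at 9.33 and 9.32 in KrasD12 A and B and at 6.65 and 6.48 in WT A and B, in deposited log2 values. Both KrasD12 samples lay far above both WT samples, and the gap between groups was many times the gap within either. The difference was 2.76 ± 0.08 (KrasD12 minus WT, log2, limma's moderated SE as after every later ±, n = 2 per group, 95% interval 2.55 to 2.97, limma adjusted p = 0.000127). After quantile normalization it was 2.57 (limma adjusted p = 1.53e-05).

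Etv5, also known as ERM, stood at 8.91 and 8.89 in KrasD12 A and B and at 7.20 and 7.23 in WT A and B. A and B differed by 0.02 in the KrasD12 line and 0.03 in the WT line, less than the gaps of 0.09 and 0.08 that were the medians over all genes. The difference was 1.69 ± 0.07 (1.685, 95% interval 1.52 to 1.85, limma adjusted p = 0.000201), and 1.52 after quantile normalization (limma adjusted p = 4.53e-05).

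Etv4, the PEA3 protein after which the subfamily is named, was the dimmest of the rows. It stood at 6.67 and 6.5 in KrasD12 A and B and at 5.54 and 5.60 in WT A and B. The groups did not overlap, which was so for 64.3% of all genes in the higher direction and 18.7% in the lower. The difference was 1.02 ± 0.08 (1.015, 95% interval 0.80 to 1.23, limma adjusted p = 0.000876). After quantile normalization it was 0.66 (limma adjusted p = 0.00195), a move of over 1.5 times. Both WT values lay near the dim level of 5.15, the 95th percentile of the mean values of 1210 olfactory and vomeronasal receptor rows.

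**Figure D1:**
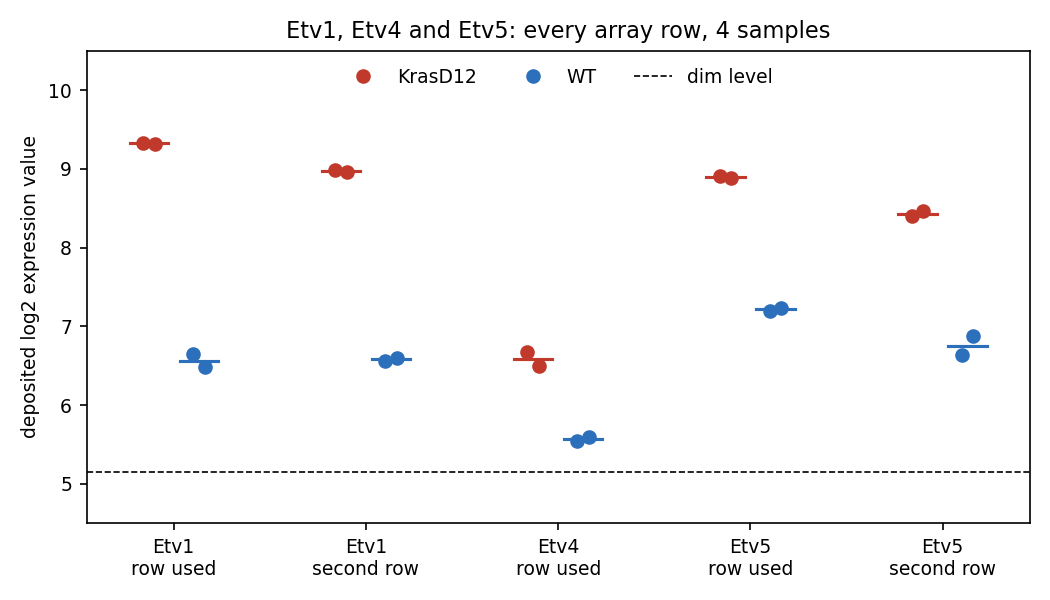
Deposited log2 expression values of every row of Etv1, Etv4 and Etv5 (points, 1 per sample; short lines, group means of 2 samples; dashed line, the dim level of 5.15). In each of the 5 rows both KrasD12 samples lie above both WT samples, with the widest gap for Etv1.

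The second rows gave like differences for both genes that had them. The other Etv1 row read 8.98 and 8.96 in KrasD12 A and B and 6.56 and 6.60 in WT A and B, a difference of 2.39 ± 0.07 (limma adjusted p = 0.000115 with every row tested). The other Etv5 row read 8.40 and 8.46 in KrasD12 against 6.63 and 6.88 in WT, a difference of 1.68 ± 0.10 (1.675, limma adjusted p = 0.000465). The rows that stand for Etv1 and Etv5 under the rule of highest mean have IDs that fall among rows of other chromosomes. Etv1 lies on chromosome 12, and 18 of the 20 rows nearest in ID to its brighter row belong to genes of chromosome 13. Etv5 lies on chromosome 16, and 20 of the 20 rows nearest to its brighter row belong to chromosome 10. The second rows fall among rows of their own chromosomes, 20 of 20 for Etv1 and 19 of 20 for Etv5, and so does the row of Etv4, 20 of 20 on chromosome 11. Whether the brighter rows read a copy of the gene elsewhere in the genome was not tested. The rises of Etv1 and Etv5 were called on either row.

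The size of the difference ran in the order Etv1, Etv5, Etv4. The 95% intervals of the 3 genes did not overlap on the deposited values, and the order was the same in 13 of 13 other settings, the second rows included. Some of these settings, such as a trended or robust eBayes step, cannot change a difference, so the order was fixed in them. The rows of different genes respond to their transcripts with different slopes, so this is an order of measured differences and not of transcript numbers. Among 19938 genes Etv1 ranked 13th in rise, Etv5 94th and Etv4 684th, and after quantile normalization 11th, 78th and 854th.

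Deposited values were higher in KrasD12 for most genes, so each member was also set beside genes of like brightness. Over all genes the difference had a median of 0.26 as deposited and of -0.0038 with quantile normalization. The 3111 genes with a mean within 0.5 of that of Etv1 had a median difference of 0.19 (0.185), and 4 of them exceeded Etv1. Among the 3111 genes around Etv5 the median was 0.18 (0.175), and 17 exceeded it. Around Etv4 the 2923 genes had a median of 0.37 (0.365), and 150 exceeded it. Less these shifts, the differences were 2.58 (2.575), 1.51 and 0.65, or 5.96-fold, 2.85-fold and 1.57-fold. Etv4 thus lay less far out among its like than the other members.

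**Figure D2:**
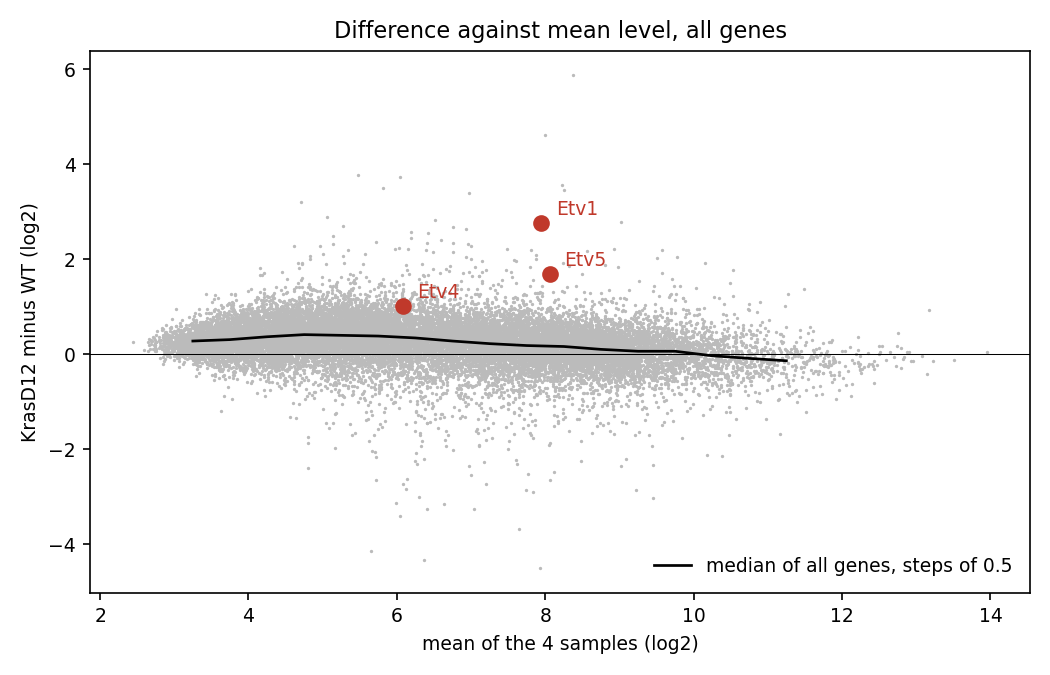
KrasD12 minus WT (log2) against the mean of the 4 samples (log2) for 19938 genes (grey points), with the running median (black line) and Etv1, Etv5 and Etv4 (red). Among genes of like mean, 4 exceeded Etv1 at 2.76, 17 exceeded Etv5 at 1.69 (1.685) and 150 exceeded Etv4 at 1.02 (1.015).

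Fits lacking KrasD12 A or KrasD12 B assume that the lone KrasD12 sample varies like the WT samples. In each, the smallest limma adjusted p of any gene lay just under the threshold, and genes with smaller differences shared it. Holding a call there thus does not set a gene apart. The calls of all 3 members held, at that shared smallest value. With WT A left out they were lost at limma adjusted p of 0.0552, 0.0552 and 0.0562 for Etv1, Etv5 and Etv4, and with WT B left out at 0.053, 0.053 and 0.0533. In those fits, which assume that the lone WT sample varies like the KrasD12 samples, limma called 0 of all genes. Unadjusted p-values were under 0.05 for 9846 genes without WT A and 10022 without WT B. The differences themselves moved little, to between 2.68 (2.675) and 2.85 (2.845) for Etv1, 1.67 and 1.70 for Etv5, and 0.93 and 1.10 for Etv4.

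Among the other ETS family members none had a deposited difference as large as that of Etv4. After quantile normalization Elf5 (-0.78), Fli1 (-0.685) and Etv2 (-0.6837) were further from 0 than Etv4, on the lower side. Of 23 measured, 5 rose and 2 fell, and 16 lacked a call on at least 1 scaling. Their median difference was 0.23 as deposited and 0.02 (0.0156) with quantile normalization, close to the 0.26 and -0.0038 of all genes, and the 5 rises are near the background of 22.4%. Etv3l rose by 0.82 ± 0.09, and by 0.49 (0.4862) after quantile normalization. Ets1, the founding member, whose activity ERK raises by phosphorylation, rose by 0.79 ± 0.09, from 7.44 and 7.25 in WT to 8.16 and 8.11 in KrasD12. Erf, an ETS repressor that ERK drives out of the nucleus, rose by 0.67 ± 0.08 (0.665). The ternary complex factors Elk3 and Elk1, which bind DNA with serum response factor, rose by 0.60 ± 0.07 (0.595) and 0.59 ± 0.08. Fli1 fell by 0.32 ± 0.10 (limma adjusted p = 0.0334) and Elf5 by 0.38 ± 0.08, the latter at values of 4.37 to 4.87, below the dim level. Quantile normalization moved both falls by over 1.5 times, to the values given above. On the deposited values alone, 11 were higher and 2 lower, beside 50.1% and 11.9% of all genes.

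The other bright family members were not called on the deposited values. Ets2 differed by 0.16 ± 0.07 (limma adjusted p = 0.0833), Gabpa by 0.06 ± 0.07 (0.055, adjusted p = 0.519) and Elf1 by 0.17 ± 0.08 (adjusted p = 0.132), each with a mean above 8. Their direction turned under median centring, to -0.185, -0.29 and -0.175, where Gabpa was called lower (limma adjusted p = 0.0208). The haematopoietic factors Spi1 and Spib, at 0.66 and 0.62 as deposited and 0.25 and 0.21 with quantile normalization, did not pass on both, and their means lay below the dim level. With KrasD12 A or KrasD12 B left out, Etv3l, Ets1, Erf, Elk1, Fli1 and Elf5 lost their calls, while Elk3 kept its call. Without either WT sample limma called 0 genes, as given above. Fli1 also lost it with the replicate letter as a block (limma adjusted p = 0.0862).

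**Figure D3:**
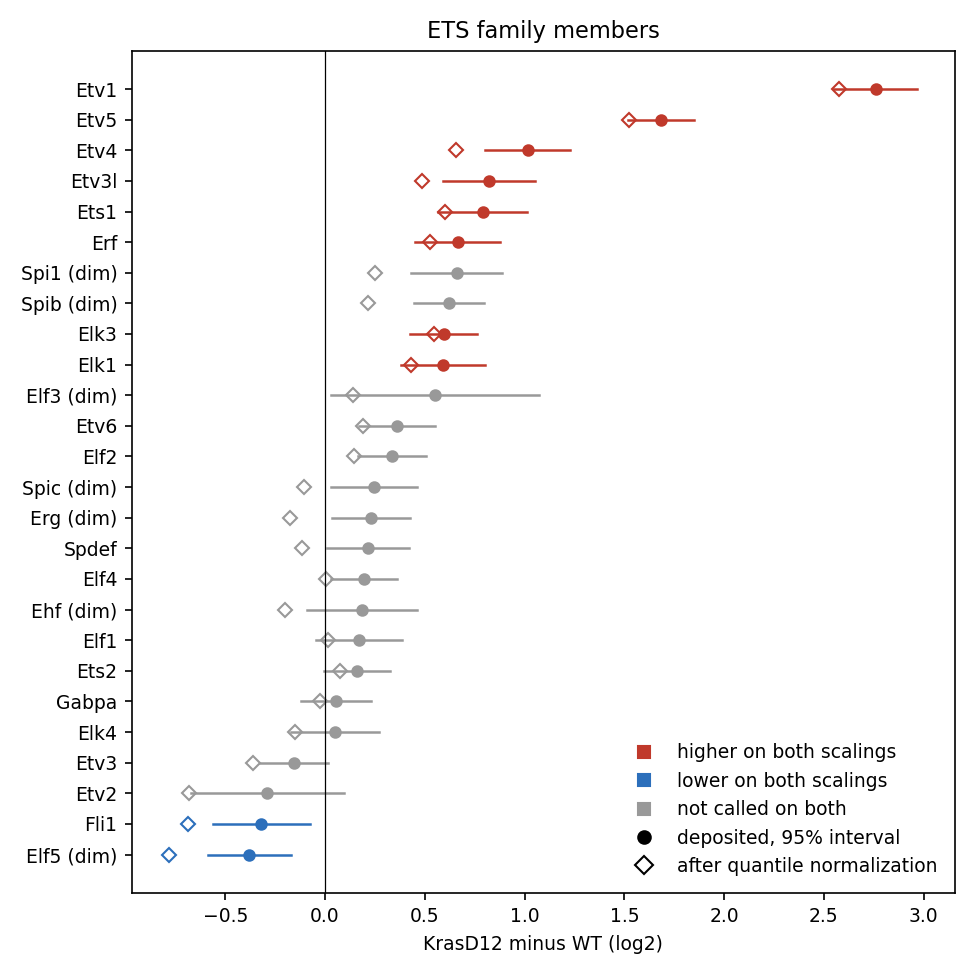
KrasD12 minus WT (log2) for the 26 measured ETS family members (filled points with limma's 95% intervals, deposited values; open diamonds, after quantile normalization; red, higher on both scalings; blue, lower on both; grey, not called on both; "dim", mean below the dim level). Etv1, Etv5 and Etv4 hold the 3 largest differences on the deposited values, and the open diamonds lie to the left of the filled points throughout.

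Among the listed feedback and response genes of the RAS-ERK and FGF pathways, called feedback genes here, rises outnumbered falls. The counts depend on the scaling, as given below. This list, like those of regulators and targets below, was chosen with earlier results of these data known. Its counts are therefore a description and not an independent test. Of 26 measured, 15 rose and 2 fell, and 9 lacked a call on at least 1 scaling, against 22.4% and 11.5% of all genes. Their median difference was 0.51 (0.505) as deposited and 0.26 with quantile normalization. Il17rd, also called Sef, an inhibitor of FGF receptor signalling, rose by 1.83 ± 0.09. It read 8.71 and 8.70 in the KrasD12 samples against 6.77 and 6.98 for WT, so the groups lay far apart. Dusp6, the phosphatase that switches off ERK, rose by 1.70 ± 0.07, and Dusp4, another MAP kinase phosphatase, by 1.33 ± 0.07 (1.325). Hmga2, a chromatin protein, rose by 1.35 ± 0.07, and Spred1 and Spred2, membrane inhibitors of RAS signalling to RAF, by 1.2 ± 0.07 and 0.97 ± 0.07 (0.965). Spred3 and the Sprouty genes Spry1, Spry2 and Spry4, which inhibit receptor tyrosine kinase signalling, rose too, by 0.86 (0.855), 0.72, 0.72 and 0.53. These 4 are named after their values were seen. Spry4, of these, stood at 0.27 (0.2669) after quantile normalization.

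Members that were not called included Fos, Egr1 and Myc, genes that growth factors induce early. Fos differed by -0.04 ± 0.11 (-0.035), Egr1 by 0.22 ± 0.10 (0.215) and Myc by 0.07 ± 0.08 (0.065). Fos was called lower after quantile normalization, at -0.34 (limma adjusted p = 0.036). They are named here after their values were seen, and Fosl1, of the Fos family, rose by 0.52 (0.515), or by 0.23 after quantile normalization. The falls were those of Ier3 (-0.355) and Spry3 (-0.24), the latter with a mean below the dim level. Quantile normalization moved them to -0.62 (-0.6187) and -0.63 (-0.6337). On the deposited values 17 were higher and 2 lower, beside 50.1% and 11.9% of all genes. Counts with 1 sample left out are given below beside those of all genes. Promoter windows were held for 16 of these genes, and 2 of their 17 windows, those of Fos and Spred3, carried TGAATGAA or TGAATGGA, as did 2.47% of all windows. Of the regulators and targets described next, 0 of 30 and 0 of 26 windows did.

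The known regulators of PEA3 factors went both ways. Of 23 measured, 8 rose and 3 fell, against 22.4% and 11.5% of all genes, and 12 lacked a call on at least 1 scaling. Their median difference was 0.19 (0.185) as deposited and 0.05 (0.0462) with quantile normalization. The transcript of the repressor Cic was higher in KrasD12, not lower: it read 9.62 and 9.76 in KrasD12 and 9.06 and 9.09 in WT, a rise of 0.62 ± 0.08 (0.615, limma adjusted p = 0.00223). Of its partners, Atxn1 fell by 0.33 ± 0.11 (0.325, limma adjusted p = 0.0477) and Atxn1l differed by 0.16 ± 0.07 (0.155, adjusted p = 0.0954), or by -0.19 under median centring. Atxn1 stood at -0.51 (-0.5087) after quantile normalization. The Atxn1 call was lost without KrasD12 B, at a difference of -0.18 (limma adjusted p = 0.0995), and with the replicate letter as a block (limma adjusted p = 0.0733). Array values of RNA do not measure the CIC protein, which ERK acts on.

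Cop1 and Det1, of the ubiquitin ligase that degrades PEA3 proteins, were not called on the deposited values or after quantile normalization. Cop1 differed by 0.12 ± 0.07 (0.115, limma adjusted p = 0.225) and Det1 by 0.14 ± 0.08 (0.135, adjusted p = 0.177). Det1 turned to -0.12 (-0.1237) after quantile normalization, and Cop1 to -0.23 under median centring. Among kinases that phosphorylate PEA3 factors, Rps6ka3, which encodes RSK2, fell by 1.07 ± 0.08 (1.065, limma adjusted p = 0.000718), from 9.42 and 9.32 in WT to 8.36 and 8.25 in KrasD12. Rps6ka5, which encodes MSK1, rose by 0.56 ± 0.07, a call lost under median centring (limma adjusted p = 0.0524) and cyclic loess (limma adjusted p = 0.0501). The acetyltransferases Crebbp and Ep300, coactivators of many ETS factors, rose by 0.67 ± 0.07 and 0.67 ± 0.07 (0.665). Fgfr2, a receptor upstream of the PEA3 genes, rose by 0.65 ± 0.07 (0.645), from 6.61 and 6.67 to 7.23 and 7.34. Quantile normalization lowered the differences of Fgfr2 and Rps6ka5, to 0.375 and 0.23. On the deposited values 10 regulators were higher and 3 lower, beside 50.1% and 11.9% of all genes. Counts with 1 sample left out are given below.

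Genes known as targets of PEA3 factors in one tissue or another also went both ways. Of 28 measured, 9 rose and 6 fell, against 22.4% and 11.5% of all genes, and 13 lacked a call on at least 1 scaling. Their median difference was 0.17 as deposited and 0.01 (0.0119) with quantile normalization. Tert, the telomerase catalytic subunit, rose by 1.29 ± 0.09 (1.285), the gelatinase gene Mmp2 by 1.07 ± 0.08 (1.065) and Cxcr4, a chemokine receptor, by 1.03 ± 0.10 (1.025). Cxcr4 read 5.67 and 5.77 in KrasD12 and 4.81 and 4.58 in WT, the latter below the dim level. Snai1, a transcription factor of mesenchymal transition, rose by 0.89 ± 0.09 (0.885) and the ligand gene Shh by 0.88 ± 0.10 (0.875). With quantile normalization Cxcr4 stood at 0.63 (0.6275), Snai1 at 0.75 (0.7462) and Shh at 0.50 (0.5013). The collagenase gene Mmp13 fell by 2.25 ± 0.07 (-2.245, limma adjusted p = 0.000127), from 7.38 and 7.35 in WT to 5.09 and 5.15 in KrasD12, and was the largest difference of the list in either direction. On the deposited values 14 were higher and 6 lower, beside 50.1% and 11.9% of all genes. Fewer were called with 1 sample left out, as among all genes, and those counts are given below. Cxcr4 and Shh lost their calls without either KrasD12 sample and Snai1 without KrasD12 B (limma adjusted p = 0.0506).

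**Figure D4:**
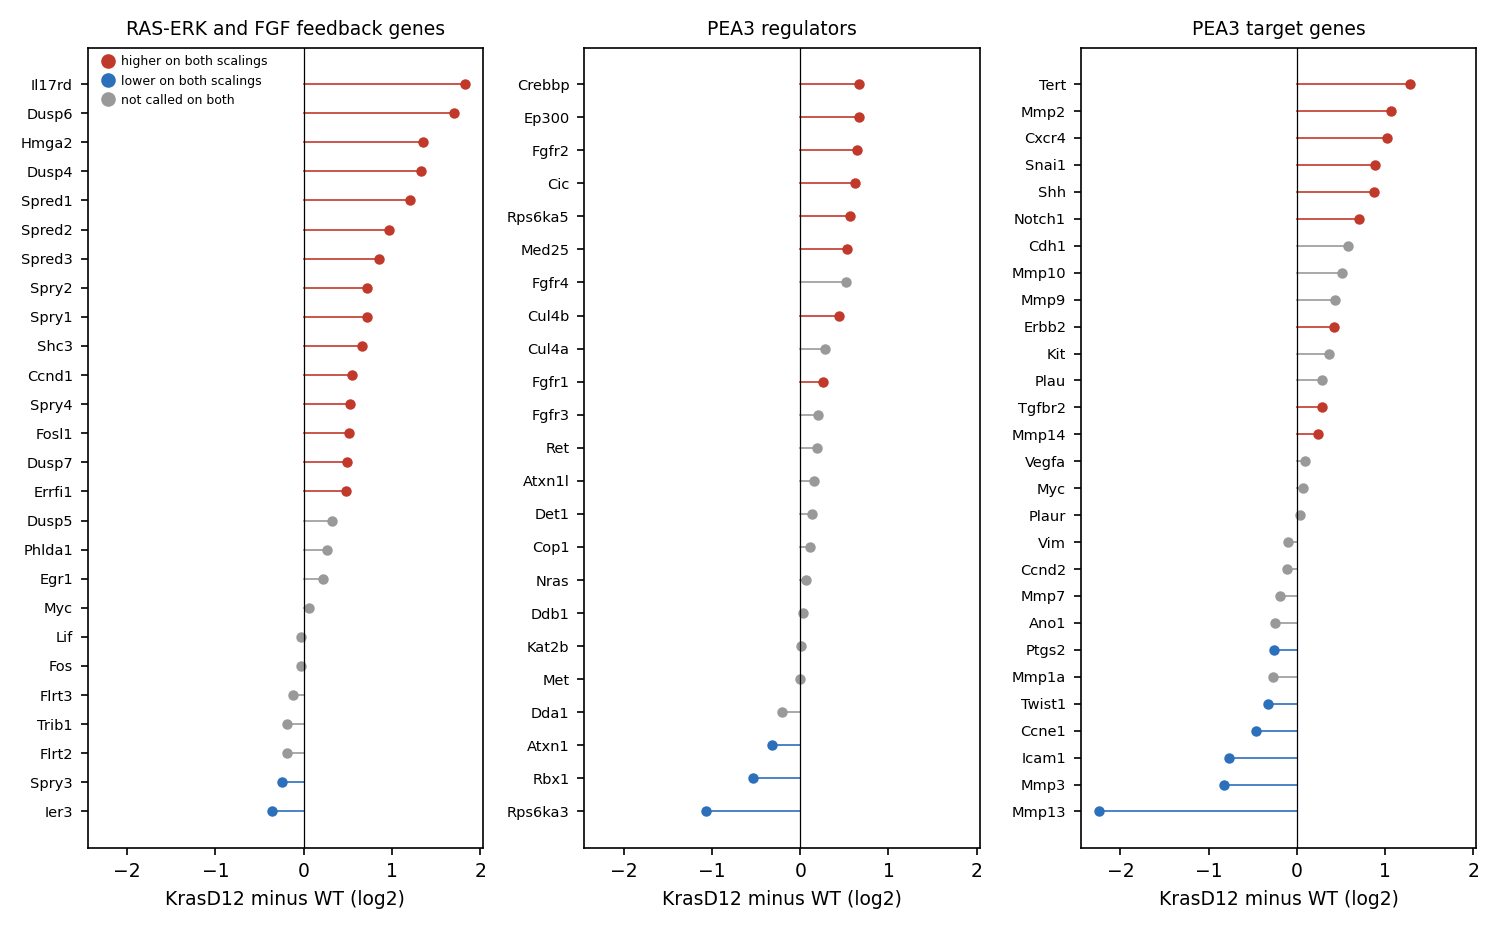
KrasD12 minus WT (log2, deposited values) of each measured feedback gene, PEA3 regulator and PEA3 target (red, higher on both scalings; blue, lower on both; grey, not called on both). Rises fill most of the feedback panel, 15 of 26, and the other panels hold rises and falls, with Mmp13 at -2.25 (-2.245) lowest. The lists were chosen with earlier results of these data known.

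Dusp6 had the pattern most like that of the brighter Etv5 row. Likeness was the Euclidean distance over the 4 samples between profiles centred on their own means, taken over 13184 other named genes above the dim level. With 4 samples it reflects the group difference and the small gaps between A and B. Etv1 and Etv5 were read from their brighter rows, whose IDs fall among rows of other chromosomes. Likeness to their second rows was not measured. The second Etv5 row read 8.40 and 8.46 in KrasD12 and 6.63 and 6.88 in WT, a wider gap between WT A and B. Dusp6 lay at a distance of 0.0166 log2 units from Etv5, reading 9.36 and 9.34 for KrasD12 against 7.63 and 7.67 for WT. Next came the aminopeptidase gene Anpep and Eps8, an adaptor of receptor tyrosine kinases, both at 0.03. For Etv4 the nearest genes were Bves (0.0224), Zcchc18 (0.0328) and Myt1l (0.0536), and for Etv1 the WNT modulator gene Dkk2 (0.0792), the bombesin-type receptor gene Grpr (0.204) and Tafa1 (0.217). Dkk2 read 10.42 and 10.42 in KrasD12 and 7.66 and 7.59 in WT. Such likeness says nothing of shared function or control.

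The genes that flank the members on their chromosomes included both rises and falls. Of the 12 nearest measured genes, 2 on each side of each member, 2 rose and 3 fell, beside 22.4% and 11.5% of all genes, and 7 lacked a call on at least 1 scaling. Agmo, an ether lipid monooxygenase gene beside Etv1, rose by 1.5 ± 0.09. On the other side of Etv1, Scin stood at 0.37 as deposited and -0.03 (-0.0312) with quantile normalization, so its direction turned with the scaling. Lsmem1, on the same side, turned too, from 0.04 to -0.345, and was called lower after quantile normalization (limma adjusted p = 0.023). Meox2, beyond Agmo, stood at -0.08 as deposited and was called lower after quantile normalization, at -0.49 (-0.4875, limma adjusted p = 0.0062). Next to Etv4, the homeobox gene Meox1 rose by 0.83 ± 0.07 (0.825) at means below the dim level, and Dhx8 differed by 0.11 ± 0.07, or by -0.235 under median centring. Meox1 stood at 0.41 (0.4137) after quantile normalization. Rdm1 (0.505) and 4930417O22Rik (0.6) were not called after quantile normalization. All 3 falls lay beside Etv5. The lens crystallin gene Crygs fell by 1.70 ± 0.09, Tbccd1 by 0.43 ± 0.07 (0.425) and the splicing factor gene Tra2b by 0.31 ± 0.07 (0.305), and Senp2 differed by -0.16 (-0.155). Tra2b took the other direction, at 0.10 (0.0975), when all rows of a gene were averaged. Tbccd1 and Tra2b lost their calls without either KrasD12 sample, and Meox1 without KrasD12 B (limma adjusted p = 0.0506).

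**Figure D5:**
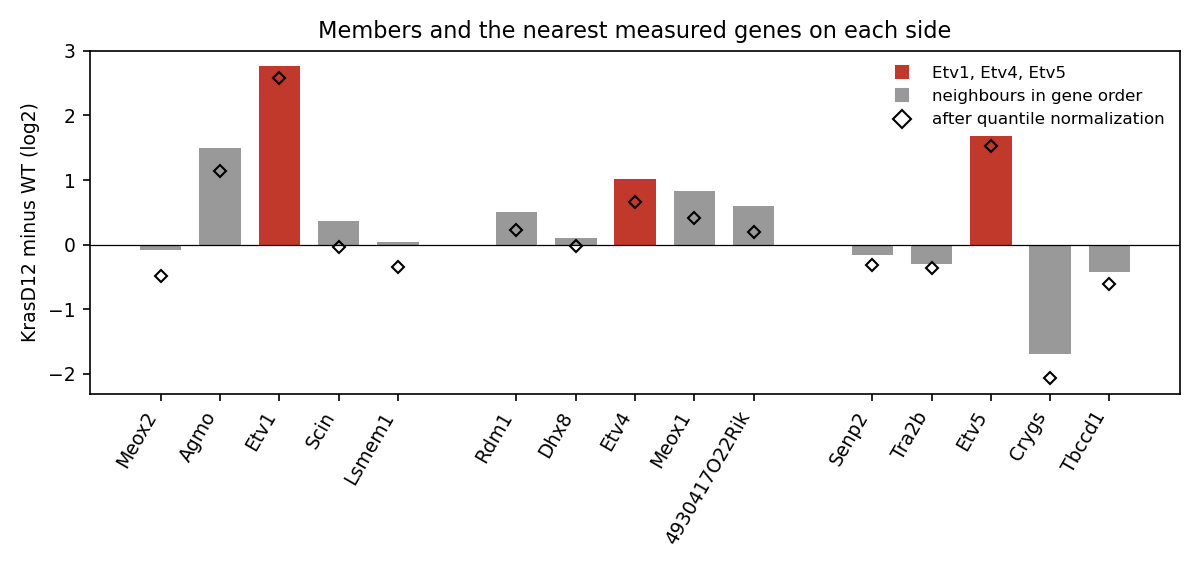
KrasD12 minus WT (log2) of Etv1, Etv4 and Etv5 (red bars) and of the 2 nearest measured genes on each side in gene order (grey bars), on the deposited values, with open diamonds after quantile normalization. Etv1 stands beside a rise of 1.5 in Agmo, and Etv5 beside a fall of 1.70 in Crygs.

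The samples carried the RNA of mesenchymal cells. Of 12 fibroblast markers all lay above the dim level, with list means of 10.9 in KrasD12 A and B and 11.2 in WT A and B. Of these markers 2 rose and 5 fell, beside 24.5% and 15.1% of genes above the dim level. The smooth muscle actin gene Acta2 was among the falls, by 1.67. Means of 10 epithelial markers were 5.35 and 5.44 in KrasD12 and 4.97 and 4.99 in WT, those of 8 endothelial markers 4.90 to 5.30 and those of 8 immune markers 5.13 to 5.19, all near the dim level. Epcam, Pecam1 and Ptprc, which define epithelial, endothelial and blood cells, lay below it in every sample. Other markers did not: 6 of the 10 epithelial, 4 of the 8 endothelial and 5 of the 8 immune markers had means above the dim level. Of the immune markers Lyz2, the lysozyme gene of myeloid cells, fell by 1.48 (-1.475), from 6.01 and 6.2 in WT to 4.56 and 4.70 in KrasD12. Cd14 and Csf1r, also of myeloid cells, fell by 0.45 (-0.445) and 0.43, and Adgre1 rose by 0.63 (0.625) at values below the dim level. With quantile normalization Cd14, Csf1r and Adgre1 stood at -0.80 (-0.8025), -0.83 (-0.8262) and 0.26 (0.2644). Of the epithelial markers Sftpc rose by 0.92 and Sftpb by 0.70, with no value above 6.1. Quantile normalization lowered these rises to 0.52 (0.5181) and 0.32 (0.3212). Whether epithelial or myeloid cells had a part in the member values was not tested. The Y-linked gene Eif2s3y read 8.73 to 9.04 in all 4 samples, and Xist 4.03 to 4.36. Y-linked levels were not all alike in the 2 lines. Kdm5d and Uty rose by 0.785 and 0.55, or by 0.58 (0.5812) and 0.395 after quantile normalization. Eif2s3y stood at -0.205 as deposited, where it was not called, and was called lower after quantile normalization (-0.2931).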

How the data were processed

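The authors' deposited values are log2 expression values, 1 per array row and sample, between 2.28 and 14.95, a scale read from the values. Per the submitters' processing notes, the Transcriptome Analysis Console was used. How background was removed, how arrays were normalized and which software version and genome build were used is not given in the sources used here. Column medians were 6.24 (KrasD12 A), 6.26 (KrasD12 B), 5.90 (WT A) and 5.91 (WT B). Of 28944 rows, 21789 carried exactly 1 symbol in the platform annotation, of which 21698 were found in the RefSeq genes of GRCm38.p6, used for names, gene order and promoter windows. Rows with several symbols (1621) or none (5534) were not tested. The row with the highest mean stood for each of 999 genes with several.

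Differences of 19938 genes were fitted by limma 3.58.1 under R 4.3.3 (lmFit, eBayes, group as the only term, two-sided, Benjamini-Hochberg over all genes), which was first tested on simulated data. The 4 samples leave 2 residual degrees of freedom, and the number of arrays limits the precision. Quantile normalization used all rows of the file. Alternatives were median centring, cyclic loess, leaving out dim genes, a trended or a robust eBayes step, averaging a gene's rows, the replicate letter as a block and each sample left out. The second rows of Etv1 and Etv5 and the call on both scalings were added after seeing the data. Genes named are the members, the other ETS genes called on both scalings or above 8 in mean, up to 6 called genes with the largest differences per list, Cic, Atxn1, Atxn1l, Cop1 and Det1, the 3 nearest patterns, the flanking genes and a few markers. The members and lists were chosen with earlier results of these data known. Python 3.11.15 with pandas 2.3.3 and matplotlib 3.10.9 made the summaries and plots.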

Additional observations from a re-analysis of the deposited data

How the results depend on the processing

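All 3 members stayed higher in 13 of 13 alternative settings. The dim filter, the trended and robust eBayes steps and the replicate block leave the differences unchanged, so direction and order were fixed in them. The difference of Etv1 lay between 2.39 and 2.85 (2.845), that of Etv5 between 1.34 and 1.70, and that of Etv4 between 0.65 (0.6495) and 1.10, with limma adjusted p of at most 0.0562. Members lost their calls in 2 settings, those without WT A and without WT B, at 2.85 (2.845) and 2.68 (2.675) for Etv1, 0.985 and 1.04 (1.045) for Etv4 and 1.67 and 1.70 for Etv5. Over the leave-one-out settings Etv1 ran from 2.675 to 2.845, Etv4 from 0.93 to 1.10 and Etv5 from 1.67 to 1.70. Among other named genes, called Scin (-0.0312 after quantile normalization) and Tra2b (0.0975 with rows averaged) turned in direction. Genes not called on the deposited values turned too. After quantile normalization they were Det1 (-0.1237), Dhx8 (-0.0175), Gabpa (-0.0275) and Lsmem1 (-0.345). Under median centring they were Atxn1l (-0.19), Cop1 (-0.23), Det1 (-0.21), Dhx8 (-0.235), Elf1 (-0.175), Ets2 (-0.185), Gabpa (-0.29) and Lsmem1 (-0.305), and under cyclic loess Atxn1l (-0.0023), Det1 (-0.1407), Dhx8 (-0.0292), Gabpa (-0.0127) and Lsmem1 (-0.3697). With 1 sample left out Lsmem1 ran from -0.085 to 0.165 and Meox2 from -0.165 to 0.005. Of the values of other named genes under the alternatives, 467 kept their direction and side of the threshold, 123 fell short of it, 8 passed it and 21 turned in direction.

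On the deposited values 9991 genes were higher and 2381 lower. Quantile normalization gave 4485 and 4861, median centring 3574 and 6657, cyclic loess 4533 and 4933, and a call on both scalings 4459 higher. With 1 sample left out the counts ran from 0 to 4623 higher and from 0 to 1160 lower. Other ETS members, 11 higher and 2 lower, came to 5 and 4 after quantile normalization, 7 and 6 after centring, 7 and 4 after cyclic loess and 5 higher on both scalings, with 1 lower under the dim filter. With 1 sample left out they ran from 0 to 3 higher and were 0 lower. Feedback genes, 17 and 2, came to 7 lower after quantile normalization, 10 and 8 after centring and 6 lower after cyclic loess, and with 1 sample left out ran from 0 to 14 higher and were 0 lower. Regulators, 10 and 3, came to 4 and 7 after centring, and with 1 sample left out ran from 0 to 9 higher and from 0 to 3 lower. Targets, 14 and 6, came to 9 and 10 after quantile normalization, 7 and 13 after centring, 9 and 10 after cyclic loess and 9 higher on both scalings, and with 1 sample left out ran from 0 to 7 higher and from 0 to 4 lower. The fits lacking a WT sample, with 1 array left in that group, gave 0 for every count, and those lacking a KrasD12 sample gave 0 for lower ETS and feedback genes. The cause of the other changes was not tested.

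With the replicate letter as a block, the members kept their calls (limma adjusted p = 0.0187, 0.0189 and 0.0187 for Etv1, Etv4 and Etv5), 1 other ETS member and 1 feedback gene were lower, and 8350 genes were higher and 1910 lower. Deviations of same-lettered samples from their group means correlated at r = 0.0132 across 19938 genes, which are not independent replicates. With 2 samples per group this is 1 comparison, and whether a shared letter marks a shared batch cannot be told from it.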

Other observations

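The place of the brighter Etv1 and Etv5 rows among rows of other chromosomes is not particular to these genes. Of 21695 rows with 1 symbol and a known chromosome, 96.6% had most of the 20 rows nearest in ID on the chromosome of their own gene, and 650 (3%) had most of them on another. For 259 genes the row with the highest mean lay elsewhere in this sense while another row lay with its own chromosome. The differences of the 2 rows were apart by a median of 0.105 on the log2 scale. In 6 of the 259 genes the brighter row differed at least 2-fold on the deposited values, and in 5 of these the second row did so in the same direction. Beside Etv1 and Etv5 they were Idi1, a gene of isoprenoid synthesis (-1.93 and -1.80), Kpna2, a nuclear import receptor gene (-1.24 and -1.16), and Fabp5, a fatty acid binding protein gene (-1.09 and -1.19). The exception was Zic4, a zinc finger transcription factor gene, at 1.29 (1.285) in the brighter row and 0.61 in the second. These genes were named after their values were seen.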
